A study of Homo sapiens with 6 samples.

Results

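RNA-binding motif (RBM) genes and RNA helicases of the DDX and DHX families were described through the C-to-U edits that long-read INSCRIBE placed on their mRNAs. The members were taken by name: every isoform with a listed edit whose gene is annotated as protein-coding in GENCODE release 44 and whose symbol starts with RBM, DDX or DHX followed by a digit. This gave 69 genes of 7469 protein-coding genes with an edit in the series, namely 29 RBM, 27 DDX and 13 DHX genes. They were listed through 112 isoforms of 9831. Of these isoforms, 89 were of protein-coding type, 15 of retained-intron type, 6 were targets of nonsense-mediated decay and 2 had no defined coding sequence.

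RBM proteins carry RNA recognition motifs and act at many steps of RNA life, above all in splicing, in the exon junction complex and in nuclear RNA surveillance. DDX (DEAD-box) and DHX (DEAH-box) proteins use ATP to remodel RNA and RNA-protein complexes in the spliceosome, in ribosome assembly, in export, in translation and in decay. Transcripts of such RNA-binding proteins are themselves bound by splicing factors of the RBFOX family, which recognise UGCAUG and are known to act on the mRNAs of other RNA-binding proteins.

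In INSCRIBE, methanol-fixed cells are incubated with a rabbit antibody to an RNA-binding protein and then with Apo1-Nb, a purified fusion of the cytidine deaminase APOBEC1 to a nanobody against rabbit IgG, so that cytosines near the bound protein are turned into uracils. The 6 libraries came from HEK293T cells, a human embryonic kidney line (HEK293XT in the cell line field of the labels), and their RNA was depleted of rRNA. RBFOX2-INSCRIBE libraries 1 and 2 received anti-RBFOX2 antibody and Apo1-Nb, enzyme-only libraries 2 and 3 (APO_only in the labels, numbered as in their titles) received Apo1-Nb without the antibody, and buffer-only libraries 1 and 2 received neither. Each group had 2 libraries of 1 cell line, which the study treats as technical replicates, so p-values measure the spread between these libraries only. Of the markers looked for, IGF2BP1, LIN28B, NEFM and NEFL carried edits in all 6 libraries, PAX2 carried none, and the blood and liver markers PTPRC, CD3E, HBB, ALB, APOA1 and TTR carried none. A transcript appears in these data only through its edits, so the absence of an edit says nothing of expression.

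The files gave, for each edited position of each isoform, the fraction of its reads that were edited. The number of reads is not part of these values, so the depth is unknown, a gene with many reads can show more edited Cs than an equally bound gene with few, and no confidence interval was computed. Members held 2532 and 2598 pairs of isoform and edited position in RBFOX2-INSCRIBE, of 211369 and 216646 in the whole libraries. They held 1075 and 2019 in the enzyme-only control and 1025 and 967 in the buffer-only control. An edited C is a genomic cytosine in an exon, on the strand of the transcript, listed as edited in a library and counted once. EditsC is the number of edited Cs of a gene as a share of the cytosines that its listed isoforms hold in their exons, in percent.

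Over all 73835 exonic Cs of the members, 2405 and 2481 were edited with the antibody, 1007 and 1918 with the enzyme alone and 950 and 899 with buffer only. EditsC was therefore 3.26% and 3.36%, 1.36% and 2.60%, and 1.29% and 1.22%, respectively. Both RBFOX2-INSCRIBE libraries lay above all control libraries, and enzyme-only library 3 lay closer to them than to enzyme-only library 2. The group means were 3.31 ± 0.0728%, 1.98 ± 0.872% and 1.25 ± 0.0488% (SD, n = 2 each). A two-sided exact permutation test gave p = 0.33 for RBFOX2-INSCRIBE against either control, the smallest p that 2 libraries against 2 allow. The other protein-coding genes had an editsC of 2.78% and 2.84% in RBFOX2-INSCRIBE, 1.19% and 2.12% in the enzyme-only control and 1.00% and 0.983% in the buffer-only control. The ratio of members to other genes was 1.17 and 1.18 in RBFOX2-INSCRIBE, 1.15 and 1.22 in the enzyme-only control, and 1.29 and 1.24 in the buffer-only control. Members were thus edited more densely than other genes in all 6 libraries, and the antibody ratios lay between both enzyme-only ratios and below both buffer-only ratios.

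The 3 families had different levels. The DDX genes had an editsC of 3.60% and 3.52% in RBFOX2-INSCRIBE, against 1.28% and 2.65% in the enzyme-only control and 1.58% and 1.52% in the buffer-only control. The RBM genes had 3.37% and 3.49%, 1.57% and 2.75%, and 1.19% and 1.14%. The DHX genes had the lowest values with the antibody, 2.37% and 2.76%, and had 0.962% and 2.10% with the enzyme only and 1.03% and 0.890% with buffer only. The mean of RBFOX2-INSCRIBE over that of buffer-only was 2.93 for RBM, 2.68 for DHX and 2.29 for DDX genes. Over the mean of enzyme-only the order was the opposite, 1.59 for RBM, 1.68 for DHX and 1.81 for DDX genes. In each family the 2 enzyme-only libraries lay far apart, and the order over each of them alone was not computed. The median edit fraction of an edited C was 0.562% and 0.546% in RBFOX2-INSCRIBE, 0.901% and 0.578% in the enzyme-only control and 0.592% and 0.571% in the buffer-only control, so a typical edited C was changed in a small minority of reads in every group.

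Gene by gene, the question was which members carried more edited Cs with the antibody than with the enzyme alone. Genes that averaged 5 or more edited Cs over the 4 libraries compared were tested with limma on log2((edited Cs + 0.5) / Cs), over all genes, with Benjamini-Hochberg adjustment. Of the 69 members, 56 could be tested against the enzyme-only control, and none passed an adjusted p of 0.05, with 0.118% of the 5088 genes tested called. At an unadjusted p under 0.05, 5 members passed, all with more edited Cs in RBFOX2-INSCRIBE: DDX19A, RBM18, DDX10, DDX21 and RBM45. This was 8.93% of the 56, beside 16.9% of all genes tested. The median log2 difference was 0.73 over the members tested and 0.85 over all genes tested. The antibody libraries both exceeded the enzyme-only pair in 27 of the 56, or 48.2%, beside 51.8% of all genes tested. Against the buffer-only control, 52 members were tested and 27 rose, or 51.9%, beside 61.1% of all genes tested. Their median log2 difference was 1.29, against 1.54 over all genes tested, and the groups did not overlap in 38 of 52 members, or 73.1%, beside 80.6% of all genes tested. Between enzyme-only and buffer-only, none of 49 members was called, beside 0.546% of all genes tested, and 2, or 4.08%, had an unadjusted p under 0.05, beside 15.1%. Here 16 of 49 members, or 32.7%, had both enzyme-only libraries above both buffer-only libraries, beside 44.4% of all genes tested. None of these shares of members stood above that of all genes.

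**Figure D1:**
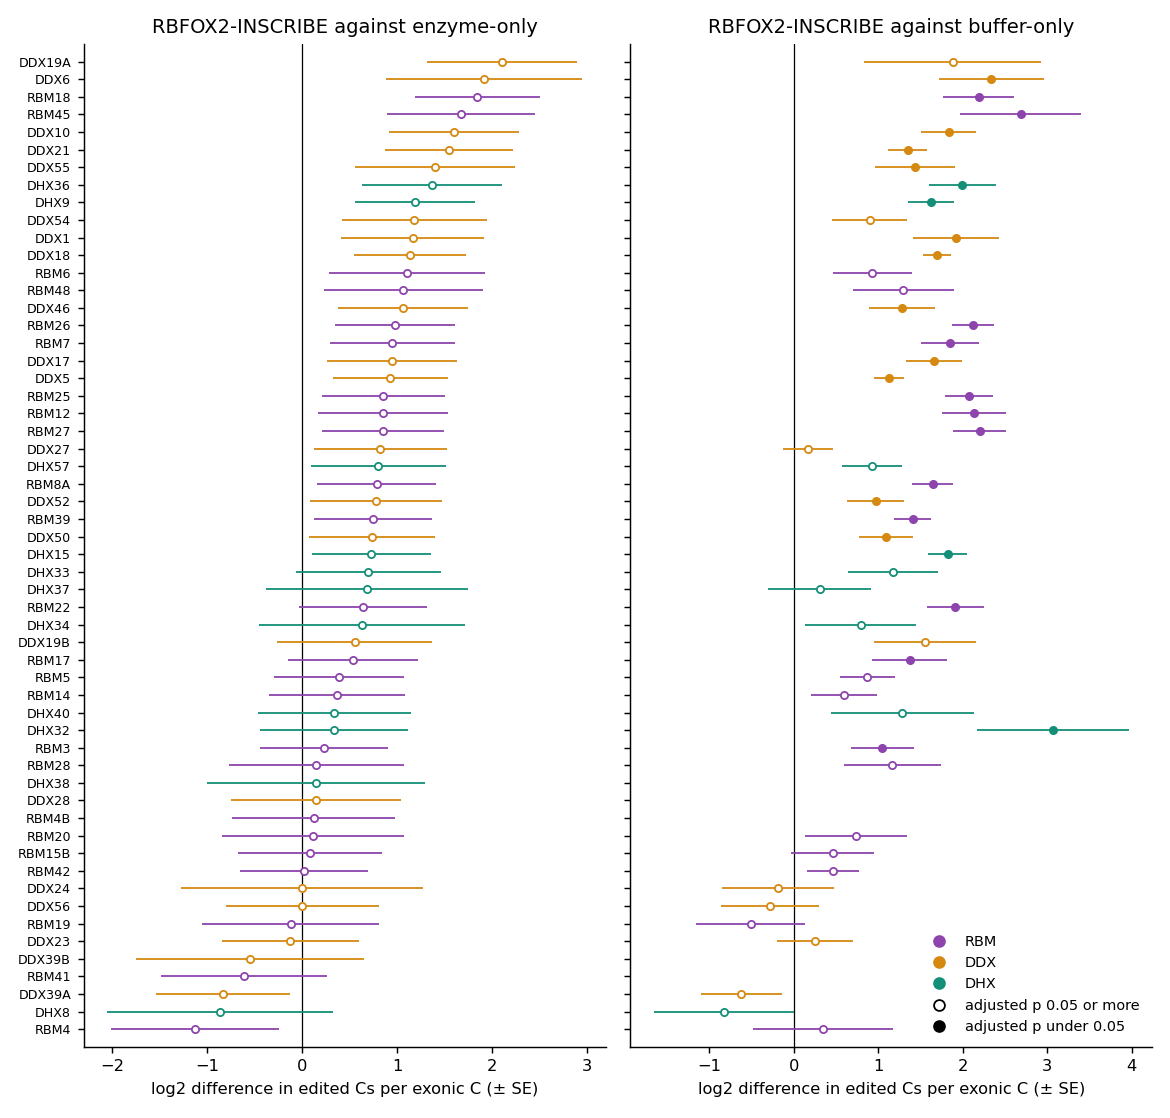
Log2 difference in edited Cs per exonic C between RBFOX2-INSCRIBE and each control for the members tested against enzyme-only, with 1 point per gene, bars of 1 SE from limma, colours for the RBM, DDX and DHX families and filled points for an adjusted p under 0.05. All points are open against enzyme-only, and 27 are filled against buffer-only, all to the right of 0.

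Enzyme-only library 3 decided the count against the enzyme-only control. Without it, 15 members had an adjusted p under 0.05: DDX5, DDX6, DDX10, DDX18, DDX21, DHX9, DHX15, DHX36, RBM7, RBM8A, RBM18, RBM25, RBM26, RBM27 and RBM39, all higher in RBFOX2-INSCRIBE. These were 15 of 56 members tested, or 26.8%, beside 1690 of 5115 genes, or 33.0%. In that fit the log2 differences ran from 1.01 for RBM39 to 3.32 for DDX6, and the 1 remaining enzyme-only library was assumed to vary like the RBFOX2-INSCRIBE group. Without any other of the 4 libraries none was called. The count against buffer-only fell from 27 to 0 without either RBFOX2-INSCRIBE library, but these fits called no gene at all, 0 of 4526 without library 1 and 0 of 4566 without library 2. The median log2 difference of the members was then 1.33 and 1.30, beside 1.59 and 1.53 over all genes tested. With every library brought to 1 common total of edited Cs, limma called 0 of the 52 against buffer-only and 15 of 4804 genes in all. In that fit 9 members, or 17.3%, had an unadjusted p under 0.05, beside 25.7% of all genes tested. Of these 9 members, 1 was higher with the antibody and 8 were lower. The median log2 difference was -0.16 over the members and 0.10 over all genes tested.

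The members with the highest editsC with the antibody were 8 genes: DDX18, DDX5, DHX9, DHX15, RBM26, RBM39, RBM8A and RBM18. DDX18, a nucleolar helicase of ribosome biogenesis (chr2:117814691-117832377, hg38), was the most densely edited member. Of its 681 exonic Cs, 139 and 146 were edited in RBFOX2-INSCRIBE, 39 and 107 in the enzyme-only control and 44 and 43 in the buffer-only control. Its editsC was 20.9 ± 0.727% with the antibody, 10.7 ± 7.06% with the enzyme alone and 6.39 ± 0.104% with buffer only (SD, n = 2 each). It rose against buffer-only by 1.70 ± 0.16 on the log2 scale (SE, limma adjusted p = 0.000565), and its difference from enzyme-only was 1.13 ± 0.59 (adjusted p = 0.299). DDX5, a splicing and transcription cofactor also called p68, had 167 and 176 edited Cs of 1166 with the antibody, 61 and 133 with the enzyme alone, and 78 and 78 with buffer only. Its libraries with the antibody were above all others, and the enzyme-only pair straddled the buffer-only pair.

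DHX9, a helicase that unwinds double-stranded RNA and RNA-DNA hybrids, had 103 and 120 edited Cs of 988 with the antibody, against 28 and 84 with the enzyme alone and 44 and 29 with buffer only. DHX15, which releases the spliced-out intron lariat, had 93 and 90 of 883, against 33 and 92, and 26 and 25. In DHX15 enzyme-only library 3 reached the level of the antibody libraries, so these groups overlapped. RBM26, a partner of the nuclear exosome-targeting machinery, had 150 and 157 of 1487, against 56 and 108, and 32 and 38. RBM39, a splicing factor and coactivator, had 136 and 123 of 1303, against 64 and 93, and 48 and 49. Both genes had all antibody libraries above all others. RBM8A, the exon junction complex core protein Y14, had 95 and 100 of 997, against 46 and 69, and 28 and 34. All 8 genes rose against buffer-only, with log2 differences from 1.13 ± 0.18 for DDX5 (adjusted p = 0.00183) to 2.19 ± 0.42 for RBM18 (adjusted p = 0.00429).

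**Figure D2:**
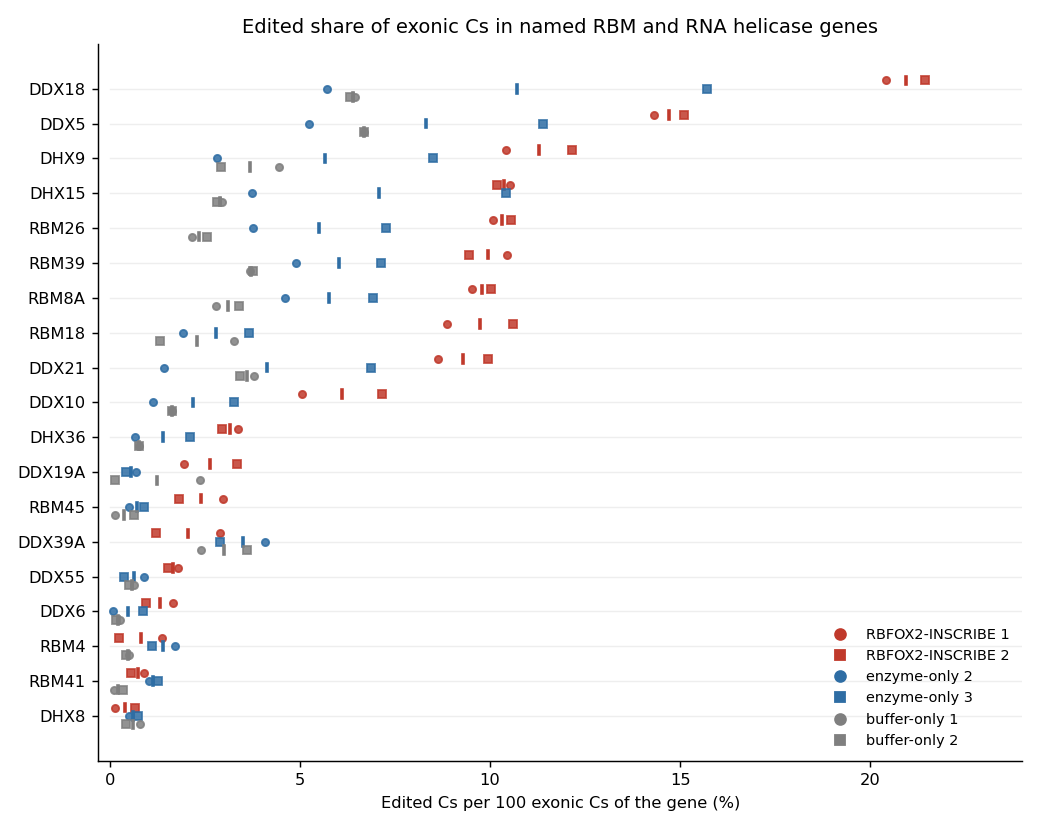
EditsC of named members in each library, in percent of exonic Cs, ordered by their mean in RBFOX2-INSCRIBE, with circles and squares for the libraries of a group and short vertical lines for the group means. The 2 RBFOX2-INSCRIBE points of DDX18, near 21%, lie furthest to the right, and the 2 enzyme-only points of most genes lie further apart than those of the other groups.

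Against the enzyme-only control, the 8 tested members with the largest difference and no overlap between the groups were DDX19A, DDX6, RBM18, RBM45, DDX10, DDX21, DDX55 and DHX36. RBM18, a small protein with 1 RNA recognition motif whose role is little known, combined a high level with a large difference. It had 87 and 104 edited Cs of 980 with the antibody, 19 and 36 with the enzyme alone, and 32 and 13 with buffer only. Its log2 difference from enzyme-only was 1.84 ± 0.66 (SE, limma adjusted p = 0.182), a 3.58-fold higher edited share. DDX19A, of the pair of helicases that act in mRNA export at the nuclear pore, had the largest difference, 2.10 ± 0.79 (limma adjusted p = 0.194). It had 14 and 24 edited Cs of 717 with the antibody and 5 and 3 with the enzyme alone, but 17 and 1 with buffer only, so it overlapped with the buffer-only control. DDX19A and DDX19B are close paralogues, and how reads that fit both were assigned is not known from these data.

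DDX21 and DDX10, both nucleolar helicases of ribosome biogenesis, had 73 and 84 of 845 and 31 and 44 of 614 edited Cs with the antibody. With the enzyme alone DDX21 had 12 and 58, and DDX10 had 7 and 20. Both rose against buffer-only, by 1.35 ± 0.23 (adjusted p = 0.00263) and 1.83 ± 0.32 (adjusted p = 0.00293). RBM45, an RNA-binding protein of the developing nervous system, had 23 and 14 of 771, against 4 and 7, and 1 and 5. DDX6, the decapping and translational repression helicase of P-bodies, had 19 and 11 of 1139, against 1 and 10, and 3 and 2. DHX36, which resolves G-quadruplexes, had 40 and 35 of 1184, against 8 and 25, and 9 and 9, and rose against buffer-only by 2.00 ± 0.40 (adjusted p = 0.00476). DDX55, a ribosome biogenesis factor, had 14 and 12 of 784, against 7 and 3, and 5 and 4. In these lower-count genes the difference from enzyme-only rested on few edited Cs.

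At the other end, the 4 lowest log2 differences from enzyme-only were those of RBM4, DHX8, DDX39A and RBM41, and none passed the test. RBM4, a splicing and translation regulator, had 16 and 3 edited Cs of 1167 with the antibody, 20 and 13 with the enzyme alone and 6 and 5 with buffer only, a log2 difference of -1.13 ± 0.89 (limma adjusted p = 0.446). DDX39A, an export and splicing helicase, had 12 and 5 of 415, against 17 and 12, and 10 and 15. DHX8, which releases mRNA from the spliceosome, had 2 and 9 of 1366, against 7 and 10, and 11 and 6. RBM41, a minor-spliceosome protein, had 8 and 5 of 874, against 9 and 11, and 1 and 3. RBM4 and RBM4B, and DDX39A and DDX39B, are also close paralogue pairs. Edits were sparse in some members: DDX59 had 5 edited Cs in RBFOX2-INSCRIBE library 1 and DDX31 had 7 in RBFOX2-INSCRIBE library 2, with no edit in the other libraries. DDX3X, a translation helicase, had 2 edited Cs in enzyme-only library 2 and none elsewhere, in the 1 isoform listed for it.

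By role, the counts are to be read beside the shares over all genes tested given above: 51.8% without overlap against enzyme-only, 61.1% called and 80.6% without overlap against buffer-only, and 44.4% without overlap between enzyme-only and buffer-only. All 7 tested helicases of translation, decay and export had both antibody libraries above both enzyme-only libraries, with a median log2 difference of 1.19, although none was called. The lower antibody count was close to the higher enzyme-only count in DDX1 (20 against 18), DDX6 (11 against 10), DDX19B (9 against 8) and DHX34 (7 against 6). In DHX9, DHX36 and DDX19A the counts were 103 against 84, 35 against 25 and 14 against 5. Against buffer-only, 4 of the 7 rose: DDX1, DDX6, DHX36 and DHX9. Of the ribosome biogenesis helicases, 7 of 12 tested did not overlap with enzyme-only, with a median of 0.80, and 6 rose against buffer-only: DDX10, DDX18, DDX21, DDX50, DDX52 and DDX55. Between enzyme-only and buffer-only, the median of these ribosome biogenesis genes was -0.18, with none of 11 without overlap, whereas the 5 genes of the list with Y14, RBM26, RBM27, RBM7 and RBM15B had a median of 0.90. Of that RBM list, 3 of 5 did not overlap with enzyme-only (median 0.85), and 4 rose against buffer-only, all but RBM15B. The splicing lists gave lower medians against enzyme-only. The splicing and snRNP helicases had 3 of 9 without overlap (median 0.14), and DDX5, DDX17, DDX46 and DHX15 rose against buffer-only among 8 tested. The splicing RBM genes had 4 of 12 without overlap (median 0.46), and RBM17, RBM22, RBM25 and RBM39 rose among 10. The RBM genes of ribosome biogenesis had a median of 0.01 over 2 genes, neither called. No test compared one list with another, and the members were not chosen without knowledge of earlier results, so the order of the lists is a description.

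Genes of the same kind that the naming rule left out were read in the same way. Of 12 tested RNA helicases outside the DDX and DHX names, none was called against enzyme-only, 9 did not overlap, beside 51.8% of all genes tested, and the median was 1.08. Against buffer-only 10 of the 12 rose, beside 61.1% of all genes tested, among them EIF4A2, EIF4A3, AQR, MTREX and DICER1. Of RBM-type genes outside the rule, RBMX was the 1 of 3 tested that rose against buffer-only, and none was called against enzyme-only.

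The edited Cs were next set against UGCAUG, the hexamer bound by RBFOX proteins, which was searched on the transcript strand of the spliced sequence of each listed isoform. It occurred 86 times in 46 of the 69 member genes (66.7%), and in 57.9% of the other protein-coding genes. Of the 86 hexamers, 32 lay in coding sequence, 41 in 3′ UTRs and 13 in exons of isoforms of other types than protein-coding (retained-intron or nonsense-mediated decay). Within 50 nt of a hexamer lay 1951 member Cs, or 2.64% of all, close to the 2.62% of the other genes. Of these Cs, 99 and 104 were edited in RBFOX2-INSCRIBE, 19 and 52 in the enzyme-only control and 25 and 19 in the buffer-only control. The edited share near the hexamer was thus 5.07% and 5.33% with the antibody, against 3.21% and 3.31% of the Cs elsewhere. The ratio of both shares was 1.58 and 1.61 with the antibody, 0.709 and 1.03 with the enzyme alone, and 0.996 and 0.796 with buffer only. Both antibody libraries lay above all 4 control libraries, and no control ratio exceeded 1.03. The means were 1.60 ± 0.0214, 0.868 ± 0.225 and 0.896 ± 0.142 (SD, n = 2 each; two-sided exact permutation test against enzyme-only, p = 0.33, the smallest p allowed).

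In the other protein-coding genes the same ratio was 1.82 ± 0.0140 with the antibody, 1.04 ± 0.0398 with the enzyme alone and 0.986 ± 0.0338 with buffer only (SD, n = 2 each). The lower ratio of the members went with a higher edited share away from the hexamer. When each gene was set against its own edited share, a measure added after seeing the data, the ratio with the antibody was 1.66 ± 0.0902 in members and 1.70 ± 0.0174 in the other genes. Set against the same gene and the same region, coding or UTR, it was 1.52 ± 0.0654 and 1.50 ± 0.0143. On the 3′ side of the hexamer, 50 and 56 of 945 Cs within 50 nt were edited with the antibody, and on the 5′ side 49 and 46 of 920. The 2 sides were thus alike in the first library, with 5.29% and 5.33%, and in the second the 3′ side was higher, with 5.93% and 5.0%. Of the 86 Cs inside a hexamer, none and 2 were edited with the antibody.

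**Figure D3:**
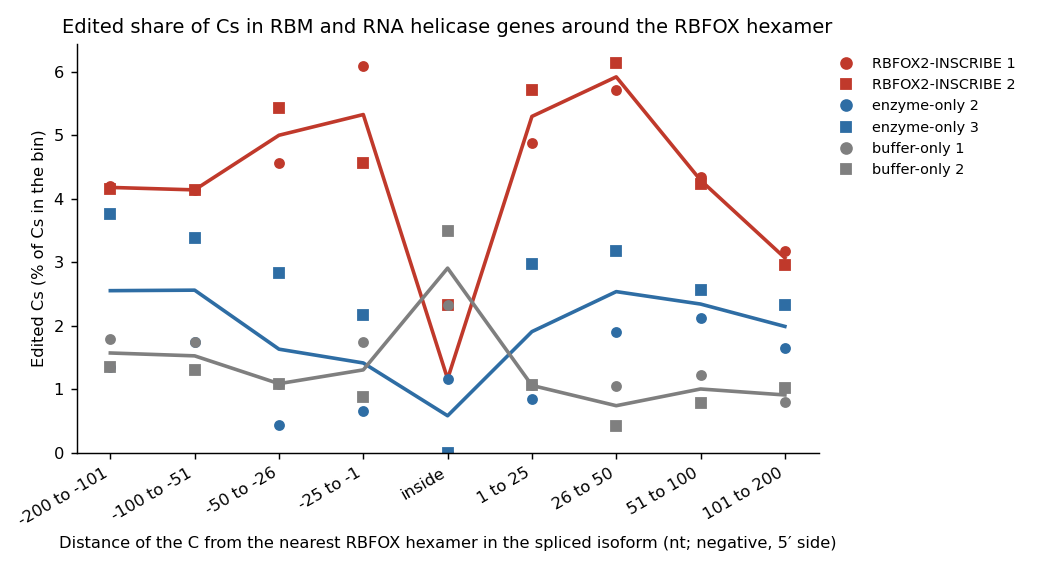
Share of member Cs edited in each library, in percent, by the distance in nt from the nearest RBFOX hexamer in the spliced isoform, with circles and squares for the libraries of a group and lines for the group means. With the antibody the share is 4.57% to 6.13% in the bins within 50 nt on either side and 2.95% and 3.18% beyond 100 and up to 200 nt on the 3′ side. At that distance on the 5′ side it is 4.21% and 4.15%, near the 3.76% of enzyme-only library 3, and the enzyme-only and buffer-only means lie lower in all of these bins.

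A hexamer had an edited C within 50 nt in both RBFOX2-INSCRIBE libraries in 27 of 86 cases, against 11 for both enzyme-only and 6 for both buffer-only libraries. Edited member Cs were also more numerous anywhere with the antibody, 2405 and 2481 against 1007 and 1918, and 950 and 899. No share over the hexamers of other genes or over windows elsewhere stands beside these counts of hexamers. The same C was edited in both antibody libraries at 13 hexamers in 11 genes, over 41 Cs in all. Of these 41, 22 were edited in no control library, beside 291 of the 548 member Cs shared by both antibody libraries anywhere. The base before the C was A or U at 37 of the 41, and none of them lay inside the hexamer. Over all member Cs edited in each antibody library, A or U stood before 71.9% and 71.4%, and the share over the 548 is not given. The hexamers with the most such Cs are shown with 12 nt of the RNA on each side, UGCAUG in capitals, 5′ to 3′, as read from hg38 (strand of the gene in brackets).
DDX18, 3′ UTR, chr2:117832247-117832276 (+): cuaauuuuuauaUGCAUGuucaugcuuuuu
RBM26, 3′ UTR, chr13:79313099-79313128 (-): agcaguuuccucUGCAUGauugcauaauga
RBM39, exon of a retained-intron isoform, chr20:35739935-35739964 (-): aaaauagcaguaUGCAUGcauuaucacugg
RBM39, coding sequence, chr20:35704671-35704700 (-): cugucaaugcauUGCAUGgcaggugguuug
RBM18, 3′ UTR, chr9:122241064-122241093 (-): aauuacauuuauUGCAUGggauuguuuuua
DDX5, 3′ UTR, chr17:64499639-64499668 (-): aaaugaaggcaaUGCAUGgccuuccaauaa
DHX15, 3′ UTR, chr4:24527584-24527613 (-): ucgaccaugguaUGCAUGaucguuguaauu

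The DDX18 hexamer had the largest number. Of the 15 Cs within 50 nt of it, 10 and 12 were edited with the antibody, 1 and 4 with the enzyme alone and none with buffer only, and 10 were edited in both antibody libraries. Of these 10, 6 were edited in no control library. The first base of the DDX18 stretch shown above, 12 nt before the hexamer and with a U in front of it, was among these 6 and was edited in 0.748% and 0.6% of reads. Others lay 36, 39 and 42 nt after the hexamer. The highest fraction among the 10 was 1.40%, at 46 and at 49 nt after the hexamer in RBFOX2-INSCRIBE library 2, so these were many Cs edited at a low fraction each.

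RBM26 had 10 and 12 edited Cs near its hexamers with the antibody, of 41, against 2 and 6 with the enzyme alone and none with buffer only. At the 3′ UTR hexamer shown, 7 Cs were edited in both antibody libraries, 4 of them in no control. The C directly before the U of that hexamer, with a U in front, was edited in 0.683% and 1.82% of reads with the antibody. RBM39 had 14 and 15 of 40, against 4 and 8, and 3 and 1. Of its 9 Cs edited in both antibody libraries, 7 lay at the hexamer of the retained-intron isoform, ENST00000463004, with the C 7 nt after it edited in 0.813% and 4.11% of reads and in no control. RBM18 had 9 and 11 of 28, against 1 and 2, and 1 and 2. At the RBM18 hexamer shown, the C 28 nt after it was edited in 0.813% and 3.66% of reads with the antibody and in no control. DDX5 had 10 and 9 of 39, against 1 and 4, and 2 and 5, and the buffer-only libraries came closer to the antibody libraries than in the other 4 genes.

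The remaining genes had few edited Cs by the hexamer. DDX17, the close paralogue of DDX5, had 10 and 7 of 141 Cs edited with the antibody, against 1 and 2, and 4 and 0. DHX15 had 3 and 3 of 13, against 1 and 3, and 0 and 1. DDX52, a ribosome biogenesis helicase, had 4 and 4 of 74, against none in the enzyme-only control and 1 and 0 with buffer only. All of these edits lay at the DDX52 hexamer in coding sequence, which has 29 Cs within 50 nt. That hexamer spans an exon junction, since its 6 bases lie in 2 neighbouring exons and are joined by splicing. The DDX52 hexamers in the 3′ UTR had no edited C within 50 nt. The top 5 genes were DDX18, RBM39, RBM26, RBM18 and DDX5. Together they held 53 of the 99 and 59 of the 104 edited Cs near a hexamer with the antibody, or 53.5% and 56.7%. With the enzyme alone they held 9 of 19 and 24 of 52, or 47.4% and 46.2%, and with buffer only 6 of 25 and 8 of 19. They were ranked by Cs near a hexamer edited in both antibody libraries, which favours a high share with the antibody. The pooled ratio of the members without these genes was not computed.

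**Figure D4:**
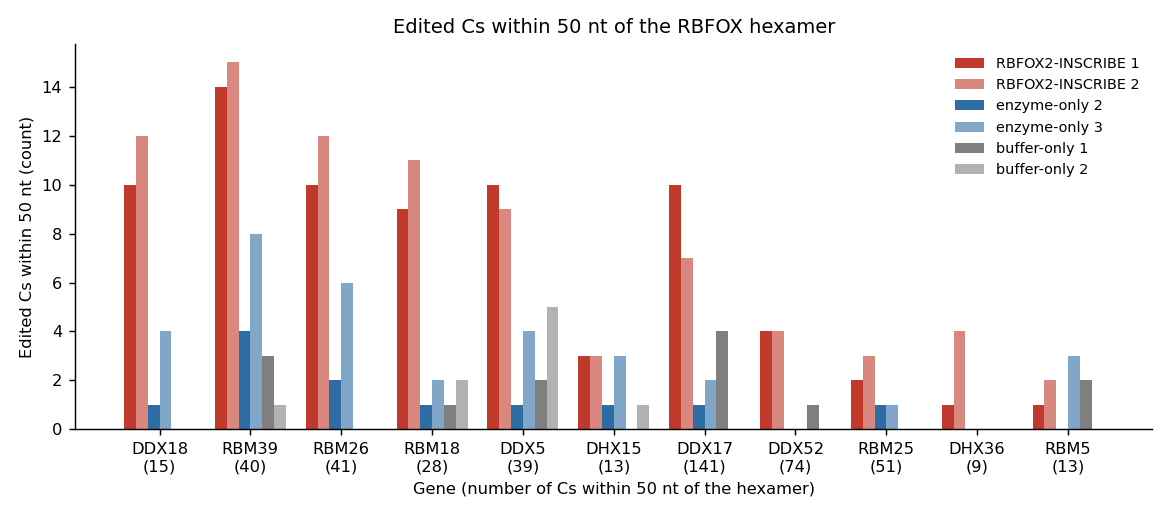
Number of edited Cs within 50 nt of the RBFOX hexamer in each library, for the 11 members in which the same C was edited in both RBFOX2-INSCRIBE libraries, with the number of Cs in that window in brackets. Bars of RBFOX2-INSCRIBE reach 10 or more in DDX18, RBM39, RBM26, RBM18, DDX5 and DDX17, where no control bar exceeds 8.

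The Cs that both libraries of a group shared were few. With the antibody 548 member Cs were edited in both libraries, or 22.8% and 22.1% of those of each library, in 37 genes. The enzyme-only libraries shared 119, or 11.8% and 6.20%, and the buffer-only libraries 62, or 6.53% and 6.90%. In the other genes the shares with the antibody were 25.1% and 24.5%. Of 7567 member Cs edited in any library, 5969 were edited in 1 library only, and none in all 6. The study had removed edits found across all of its samples. Of the 548 shared Cs, 291 in 36 genes were edited in no control library, with 177 in 3′ UTRs, 92 in coding sequence, 2 in 5′ UTRs and 20 in exons of other isoforms, and 22 of the 291 lay within 50 nt of UGCAUG, in 9 genes. The shared Cs with the highest mean edit fraction and no edit in any control were chiefly in 3′ UTRs. The highest, in DDX17, DDX19A and RBM18, are shown with 12 nt on each side and the edited C in capitals. A coding-sequence C of DDX6 is added as an example of that region. The 3′ UTR Cs of RBM26, DDX17 and DDX6 that ranked between them are left out.
DDX17, 3′ UTR, chr22:38483949-38483973 (-): uuggauugcuugCuucccuuuuucc
DDX19A, 3′ UTR, chr16:70373357-70373381 (+): gacaaauauauaCucauuuuaaaaa
RBM18, 3′ UTR, chr9:122239387-122239411 (-): ccaguugauuuuCuauaauugguau
DDX6, coding sequence, chr11:118754820-118754844 (-): ugaugaucgcuuCaaccugaaaagu

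The DDX17 C was edited in 9.09% and 33.3% of reads, the DDX19A C in 2.44% and 6.25%, the RBM18 C in 4.62% and 3.51%, and the DDX6 C in 4.44% and 1.72%. The 2 libraries differed by up to several fold at a single C, and the number of reads behind each value is unknown. Where a C was listed in more than 1 isoform, the highest fraction was taken. None of these 4 stretches holds UGCAUG, and neither do those of the RBM26, DDX17 and DDX6 3′ UTR Cs left out. The DDX6 one, edited in 2.22% and 5.17% of reads, holds GCAUG.

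APOBEC1 prefers a C that follows A or U, and the base before the edited Cs of the members differed between groups in that respect. The base was A or U in 71.9% and 71.4% of edited Cs with the antibody, 64.1% and 69.9% with the enzyme alone, and 42.4% and 42.0% with buffer only. A was the most common with the antibody, at 40.0 ± 0.157%, followed by U at 31.6 ± 0.175% and G at 18.8 ± 0.513% (SD, n = 2). With buffer only, where no deaminase was added, G led with 38.2 ± 0.651%, and A made up 18.2 ± 1.13%. Cs after an A had an editsC of 6.02 ± 0.109% with the antibody, 3.31 ± 1.79% with the enzyme alone and 1.03 ± 0.105% with buffer only. Cs after a G had 2.49 ± 0.123%, 1.68 ± 0.507% and 1.92 ± 0.0422%. The groups thus lay far apart for Cs after A and close together for Cs after G. The exact permutation p for the share of A or U was 0.33 against each control, the smallest allowed. In the other genes A stood before 40.7 ± 0.613% of edited Cs with the antibody and 19.3 ± 0.419% with buffer only.

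By position, 48.5% and 49.6% of the edited Cs in protein-coding isoforms of the members lay in 3′ UTRs with the antibody, against 41.2% and 43.5% with the enzyme alone and 33.2% and 36.0% with buffer only. The groups did not overlap (two-sided exact permutation test, p = 0.33 against each control). EditsC of the 3′ UTRs was 3.60% and 3.86% with the antibody, 1.29% and 2.62% with the enzyme alone, and 1.01% and 1.04% with buffer only. In coding sequence it was 3.10% and 3.22%, against 1.48% and 2.76%, and 1.63% and 1.47%. The other protein-coding genes had about the same editsC in 3′ UTRs with the antibody, 3.61% and 3.76%, but a lower one in coding sequence, 2.30% and 2.29%. Members also lay above the other genes in 5′ UTRs, at 1.84% and 1.54% against 1.20% and 1.16%, and in exons of isoforms of other types than protein-coding, at 3.14% and 2.65% against 0.985% and 1.10%. In coding sequence and in both of these regions members were higher in the controls as well. In buffer-only library 1 they had 1.23% against 0.837% in 5′ UTRs and 0.747% against 0.321% in the other exons. In coding sequence members had 1.48% and 2.76% with the enzyme alone, against 1.22% and 2.00% in the other genes. With buffer only they had 1.63% and 1.47% there, against 1.14% and 1.12%.

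Of the 69 genes, 43 had 1 listed isoform, 26 had more, and the most was 4. At the level of isoforms, none of 72 member isoforms tested was called against enzyme-only, beside 0.0525% of all isoforms tested, with 8, or 11.1%, at an unadjusted p under 0.05, beside 16.2%. Against buffer-only 38 of 68 rose, or 55.9%, beside 60.1% of all isoforms tested. Isoforms of 1 gene differed widely in editsC. The RBM26 isoform ENST00000449987, which extends further in the 3′ direction than the other listed RBM26 isoforms and carries the hexamer shown above, had 98 and 97 of 558 Cs edited with the antibody, 38 and 54 with the enzyme alone and 11 and 13 with buffer only, or 17.5 ± 0.127%, 8.24 ± 2.03% and 2.15 ± 0.253%. The longer ENST00000438724 had 37 and 39 of 994, against 7 and 39, and 16 and 13. ENST00000267229 had 7 and 12 of 700, with groups that overlapped. DDX5 was edited mainly in its coding isoform ENST00000225792, at 18.7 ± 0.437% with the antibody, 8.11 ± 4.04% with the enzyme alone and 7.11 ± 0.874% with buffer only. Its retained-intron isoforms ENST00000581230 and ENST00000579461 had 7.16 ± 0.731% and 3.02 ± 0.490% with the antibody.

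With the antibody RBM39 had 8.45 ± 1.63% in ENST00000361162 and 5.59 ± 0.214% in ENST00000253363, both coding. It had 4.45 ± 0.175% in the retained-intron isoform ENST00000463004 and 0.658 ± 0.133% in the nonsense-mediated decay isoform ENST00000403542. ENST00000361162 had 50 and 38 edited Cs with the antibody and 25 and 44 with the enzyme alone, so these groups overlapped. ENST00000253363 had 57 and 54 against 25 and 38, and ENST00000463004 had 35 and 37 against 12 and 21. ENST00000403542 had 3 and 4 against 3 and 1. RBM25, a splicing regulator, had 5.96 ± 0.546% in the coding ENST00000261973 and 5.40 ± 1.63% in the retained-intron ENST00000532683. Its other retained-intron isoform, ENST00000527449, had 15 and 19 edited Cs of 552 with the antibody, 5 and 3 with the enzyme alone, and 2 and 1 with buffer only, so the groups did not overlap. DHX9 had 11.5 ± 1.20% in the coding ENST00000367549 and 2.87 ± 0% in the shorter ENST00000485081. By group mean, the most edited isoform with the antibody was also the most edited with the enzyme alone in DDX5, RBM26, RBM25, RBM39 and DHX9. In RBM25 the order was not the same in every library, since ENST00000532683 exceeded ENST00000261973 in RBFOX2-INSCRIBE library 1, with 6.55% and 6.35%, and in enzyme-only library 2, with 3.10% and 1.72%. Reads that fit more than 1 isoform were left out by the study, and the number of reads per isoform is unknown, so levels of isoforms cannot be told apart from their read numbers.

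**Figure D5:**
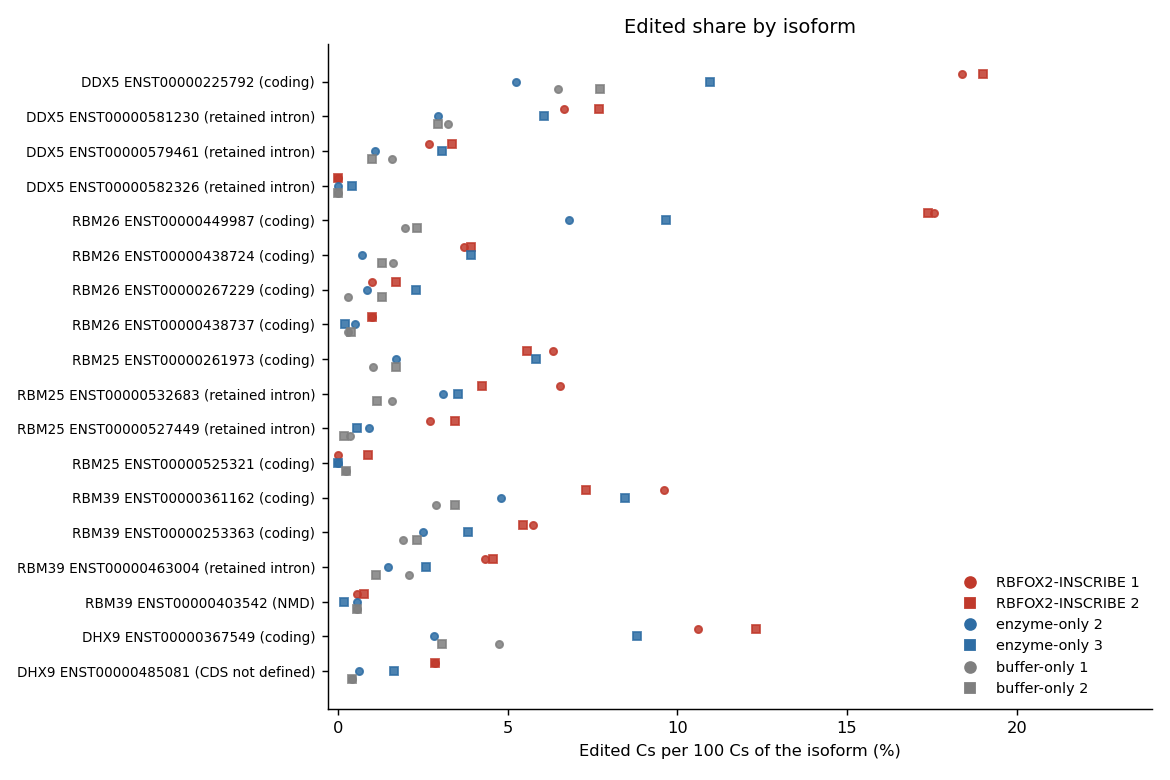
EditsC of each listed isoform of DDX5, RBM26, RBM25, RBM39 and DHX9 in each library, in percent of the Cs of the isoform, with circles and squares for the libraries of a group. The isoform ENST00000449987 of RBM26 and ENST00000225792 of DDX5 lie above 15% with the antibody, while the other isoforms of these genes lie below 10%.

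G-to-A sites on the transcript strand, which the deaminase cannot make on that RNA, gave a background measure in the same genes. Members held 70 and 55 such sites with the antibody, 56 and 65 with the enzyme alone and 67 and 59 with buffer only. These 3 groups overlapped, in contrast with the edited Cs.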

How the data were processed

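Per the labels and the methods of the study, RNA of INSCRIBE-treated HEK293T cells was made into Kinnex full-length libraries and sequenced on PacBio instruments, with 1 SMRT Cell per library. The authors made circular consensus reads (ccs 8.0.0), split them (skera), trimmed and refined them (lima 2.9.0, refine 4.1.1), aligned them to hg38 (pbmm2, primary alignments of quality 20 or more on the correct strand) and assigned them uniquely to isoforms (IsoQuant 3.3.0). They called C-to-U edits and removed edits found across all samples and dbSNP positions. The deposited value is a fraction, edited reads over reads of the isoform at a position. The annotation release the authors used for isoforms is not given in the sources used here, and between 99.74% and 99.76% of listed positions lay on isoforms of GENCODE release 44. Depth is unknown, so rules on coverage could not be applied.

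From the files, distinct edited Cs on the strand of the transcript and in its exons were counted per gene, isoform and library. Genes and isoforms that averaged 5 or more edited Cs were tested with limma 3.58.1 (R 4.3.3, trend and robust settings, 2 groups per fit) on log2((edited Cs + 0.5) / Cs), with Benjamini-Hochberg adjustment over all tested. Single values were compared by two-sided exact permutation over libraries. UGCAUG was searched in spliced sequences with a window of 50 nt. Counting used Python 3.11.15 and pandas 2.3.3, permutation scipy 1.17.1, and plots matplotlib 3.10.9. The limma fit of RBFOX2-INSCRIBE against buffer-only and the hexamer ratio were checked on simulated data. The simulated counts did not include the gap between the 2 enzyme-only libraries. Named genes were the members with the largest and lowest differences from enzyme-only, the highest editsC, the most edited Cs by UGCAUG, the most edited isoforms and those listed in at most 1 library; RBM27, RBM7, DDX50 and others were named as calls of a count. The members and the role lists were chosen with earlier results of these data known. Alternatives covered pseudocounts, minimum counts, scaling, the fit with all 3 groups, a replicate block, the edit fraction and the strand. They also covered the motif window, GCAUG in place of UGCAUG, U only before the C and leaving out each library. Edits of the other strand were used only as a background measure and in 1 alternative that counted both strands. Role lists not described by name (helicases of mitochondria, of DNA and antiviral sensing, and other) had few or no tested members. Short-read data were not analysed here.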

Additional observations from a re-analysis of the deposited data

How the results depend on the processing

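No member gene was called between RBFOX2-INSCRIBE and enzyme-only under 12 of 13 alternatives, and the exception was leaving out enzyme-only library 3: leaving out 1 library at a time gave 0 to 15 genes and 0 to 19 isoforms. Against buffer-only, leaving out 1 library gave 0 to 21 genes, with 0 without either RBFOX2-INSCRIBE library, where no gene at all was called, and 6 to 30 isoforms. Scaling edited Cs to the same total per library left 0 genes and 0 isoforms called against buffer-only, and keeping only edit fractions of at least 0.02 left 3 genes of 19 tested and 2 isoforms of 17, beside 641 of 1820 genes and 598 of 1645 isoforms in all. The highest counts with 1 library left out went with lower median log2 differences in members than over all tested. Without enzyme-only library 3, the median against enzyme-only was 1.17 over member isoforms, beside 1.33 over all isoforms tested. Against buffer-only, the gene median without buffer-only library 2 was 1.16 over members, beside 1.51 over all. The isoform median without buffer-only library 1 was 1.27, beside 1.53. With all 3 groups in the fit, 25 isoforms and 18 genes were called against buffer-only. These were 36.8% of member isoforms and 34.6% of member genes, beside 41.6% of all isoforms and 43.2% of all genes tested. Between enzyme-only and buffer-only no member was called under any of 13 alternatives, with 2 at an unadjusted p under 0.05 in the reported limma fit. The difference in pooled editsC between RBFOX2-INSCRIBE and enzyme-only, 1.33 percentage points, turned to -0.00759 when editsC was divided by that of all protein-coding genes of the library (means 1.18 and 1.18), and leaving out 1 library gave 0.711 to 1.94 points. Differences from enzyme-only in hexamer ratio, 3′ UTR share and share of A or U kept their sign under 12, 6 and 6 alternatives. With 1 library left out they were 0.57 to 0.888, 5.57 to 7.85 and 1.79 to 7.61. The hexamer difference of 0.729 in the main count was 0.391 with a window of 100 nt, 0.194 with 200 nt and 0.236 with GCAUG. Its other settings with all libraries gave 0.661 to 1.11. The difference in A or U, 4.70 points in the main count, was 0.589 for U only and 6.93 at edit fractions of at least 0.02. The causes of these changes were not tested. A replicate block used the replicate field of the labels, which numbers enzyme-only libraries 2 and 3 as 1 and 2. It so paired them with RBFOX2-INSCRIBE libraries 1 and 2. With this block, 0 member genes were called against enzyme-only, beside 28 of 5088 genes in all. Against buffer-only 27 were called, or 51.9%, beside 60.2% of all genes tested. There were 32 isoforms in place of 38, or 47.1%, beside 56.4% of all isoforms tested. What libraries with the same number in that field share is not stated. Correlations of their deviations over 4801 genes were 0.11 for RBFOX2-INSCRIBE with enzyme-only and 0.0486 for RBFOX2-INSCRIBE with buffer-only. For enzyme-only with buffer-only the correlation was -0.0248. These values do not show which libraries were prepared together. Read numbers are unknown, so neither low-depth sites nor unequal depth between libraries could be set apart, and many members had under 20 edited Cs per library.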
